A study of Mus musculus with 4 samples.

Results

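The genes examined were 8 that encode pancreatic foregut transcription factors: Foxa1, Foxa2 and Foxa3 of the FOXA family, Hnf4a and Hnf4g of the HNF4 family, Onecut1, Gata4 and Gata6. They were chosen by name, out of 21887 protein-coding genes, and every NKX2.2 peak summit in or within 100 kb of them was taken. The summits come from chromatin immunoprecipitation and sequencing (ChIP-seq) of the homeodomain factor NKX2.2 in alphaTC6 cells, a mouse line of glucagon-producing pancreatic alpha cells that the labels give as wild type (WT). The series has 2 NKX2.2 ChIP samples and 2 input samples of this line, and its outcome is 1 list of 7384 summits called by the authors against input. The list has no value per library, so depth and replicate error are unknown, and no gene's binding can be compared between samples. It also holds no expression values, so neither the identity of the cells nor the expression of the 8 genes was examined.

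FOXA proteins are winged-helix factors that can bind nucleosomal DNA and act early in foregut endoderm; in islets FOXA2 is known for its part in alpha and beta cell differentiation and in transcription of the preproglucagon gene. HNF4 proteins are nuclear receptors of liver, gut and pancreas, ONECUT1 (HNF6) acts in pancreatic progenitors upstream of endocrine commitment, and GATA4 and GATA6 are zinc-finger factors needed for early pancreas growth. NKX2.2 is a homeodomain factor of endocrine progenitors and islet cells that is known to act both as a repressor and as an activator.

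Foxa2 was the only gene of the 8 with a summit in the gene or within 10 kb of it, a share of 12.5% (95% Wilson interval 2.24% to 47.1%), against 25.8% of all protein-coding genes. That summit is weak, and with a score minimum of 5 the count was 0 of 8. Within 50 kb the count was 5 of 8, Foxa1, Foxa2, Foxa3, Hnf4a and Gata4, or 62.5% (30.6% to 86.3%), against 43.8% of all protein-coding genes. The same 5 genes made up the count within 100 kb, where the share over all genes was 55.3%. All 3 background shares lie inside the intervals of the 8 genes, which cover counting error only. By gene, Foxa2 had 6 summits in or within 100 kb, Foxa3 had 5, Hnf4a had 2, Foxa1 and Gata4 had 1 each, and Hnf4g, Onecut1 and Gata6 had 0. The median was 1 summit per gene, which was also the median over all protein-coding genes.

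**Figure D1:**
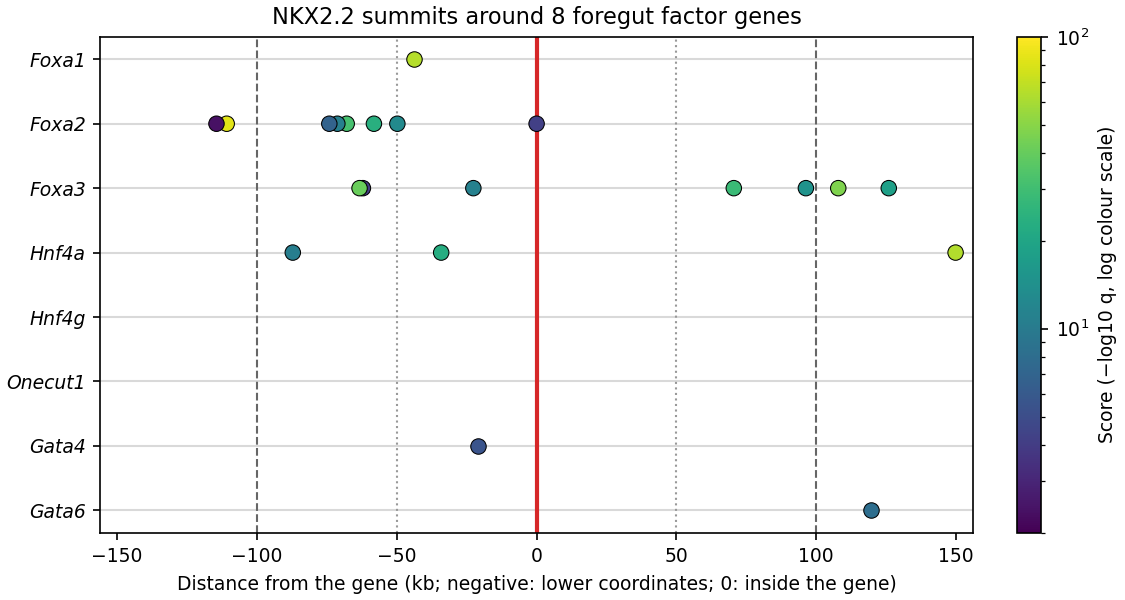
Positions of NKX2.2 summits around each of the 8 genes, in kb from the gene with 0 inside it; each point is 1 summit, coloured by score, and the dotted and dashed lines mark 50 and 100 kb. Foxa2 alone has a point at 0, and the rows of Hnf4g and Onecut1 are empty.

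In all, 15 summits lay in or within 100 kb of the genes. The score used below is the authors' deposited value per peak, the −log10 q-value of ChIP against input, and rank 1 is the highest score of the 7384. Assignment by distance does not show which gene a summit acts on. For 6 of the 15 summits the nearest protein-coding gene was the member itself, and these 6 were all at Foxa2. At Foxa2 gene spacing fixed this outcome, since the nearest other protein-coding gene lies 348.4 kb away. Of the other 9, 3 lay inside another protein-coding gene, 5 lay outside but within 1 kb of another protein-coding gene, and the remaining summit, at Foxa1, lay between genes.

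Foxa2 (gene ID 15376) lies on the minus strand of chromosome 2, at 148042877 to 148046969 in GRCm38 (mm10), and is 4.09 kb long. Its summit inside the gene was at position 148046068. RefSeq lists 3 start sites for Foxa2, and this summit was 120 bases upstream of the one at 148045948 and 0.901 kb downstream of the outermost one at 148046969. Exons and introns were not resolved with the gene table used here. The score was 4.21, rank 6949, so only 435 summits of the list (5.89%) scored lower. The summit was therefore among the weakest that the authors' threshold admitted. A summit in a listed promoter window, meaning the 250 bases before and the 50 bases after a start, was found for 7.73% of the 17492 protein-coding genes with such a window. Of the 1251 summits in these windows, 66 (5.28%) scored lower than the one at Foxa2, and their median score was 12.9.

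The 250 bases upstream of that Foxa2 start are shown because they hold the only summit inside any of the 8 genes. They are RefSeq sequence of GRCm38.p6, minus strand, chr2:148045949-148046198, and run 5′ to 3′ towards the start. The summit is base 131 of the run, and the capitals mark AAGTG, the core that NKX2 homeodomains are known to bind.
Foxa2: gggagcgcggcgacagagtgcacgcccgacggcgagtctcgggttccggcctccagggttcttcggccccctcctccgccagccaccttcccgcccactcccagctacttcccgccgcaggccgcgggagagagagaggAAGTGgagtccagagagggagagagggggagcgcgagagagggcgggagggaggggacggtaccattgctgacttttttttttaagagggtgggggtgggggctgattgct
The core starts at base 140 of the run, 9 bases from the summit. The longer core TNAAGTG, which contains the shorter core, was not present in the window. The 5-letter core is common: on either strand it was present in 46.4% of all 32851 listed promoter windows and in 45.1% (95% Wilson interval 42.7% to 47.5%) of the 1624 windows that hold a summit. Listed windows can share a summit, which the interval does not allow for. The presence of the core at Foxa2 is a description of the sequence and identifies no site.

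The remaining Foxa2 summits lay on the downstream side, inside the long noncoding RNA gene 9030622O22Rik (gene ID 100043820). This gene is on the same strand as Foxa2, spans 147944459 to 148040513 (96.1 kb), and has its nearer end 2.36 kb from Foxa2. All 5 lay 49.8 to 74.1 kb from Foxa2, in a stretch of 24.3 kb, with gaps of 2.88 to 9.73 kb between neighbours. From the Foxa2 side outwards, the summit at 147993090 scored 12.7, that at 147984706 scored 23.5 and that at 147974979 scored 31.7. The next, at 147971631, scored 10.8, and the outermost, at 147968756, scored 6.89. The score was highest in the middle of the group and lower on either side. Of the 5, 2 were above the median of the whole list, 13.7.

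The group was then set beside the rest of the list, with a minimum of 5 summits and a length of 25 kb that were both taken from the group after it was seen. Of 12727 annotated lncRNA genes, 5 (0.0393%) held 5 or more summits: Gm31718 with 10, 2210408F21Rik, Gm26843 and Lncpint with 6 each, and 9030622O22Rik with 5. Long genes have more room for summits: among the 357 lncRNA genes of at least 90 kb, the same 5 made up 1.40%. Of the 7380 summits on assembled chromosomes, 87 (1.18%) lay in a stretch of at most 25 kb with at least 5 summits. Counting the promoter summit, Foxa2 had 6 summits in or within 100 kb, and 3.19% of all protein-coding genes had as many or more.

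The strongest summit of the locus lay just beyond the 100 kb limit. At position 147932067, 110.8 kb from Foxa2 and 12.4 kb past the lncRNA gene, it scored 83.5 and ranked 461. Close to it, at 147928405, was a weak summit with a score of 2.38, and 164.6 and 166.8 kb from Foxa2 lay 2 more, with scores of 2.42 and 8.69. Within 200 kb there were thus 9 summits on the downstream side and 0 on the upstream side, where the nearest lay 372.3 kb away, beyond Sstr4 and Thbd. No other protein-coding gene lies within 100 kb of Foxa2. The nearest on the upstream side is Sstr4, the somatostatin receptor 4 gene, at 348.4 kb, and on the downstream side Pax1, a paired-box factor gene, at 667.8 kb. Beyond the farthest of these 9, no further summit was found on the downstream side until 847.6 kb from Foxa2, inside Nkx2-2 itself.

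**Figure D2:**
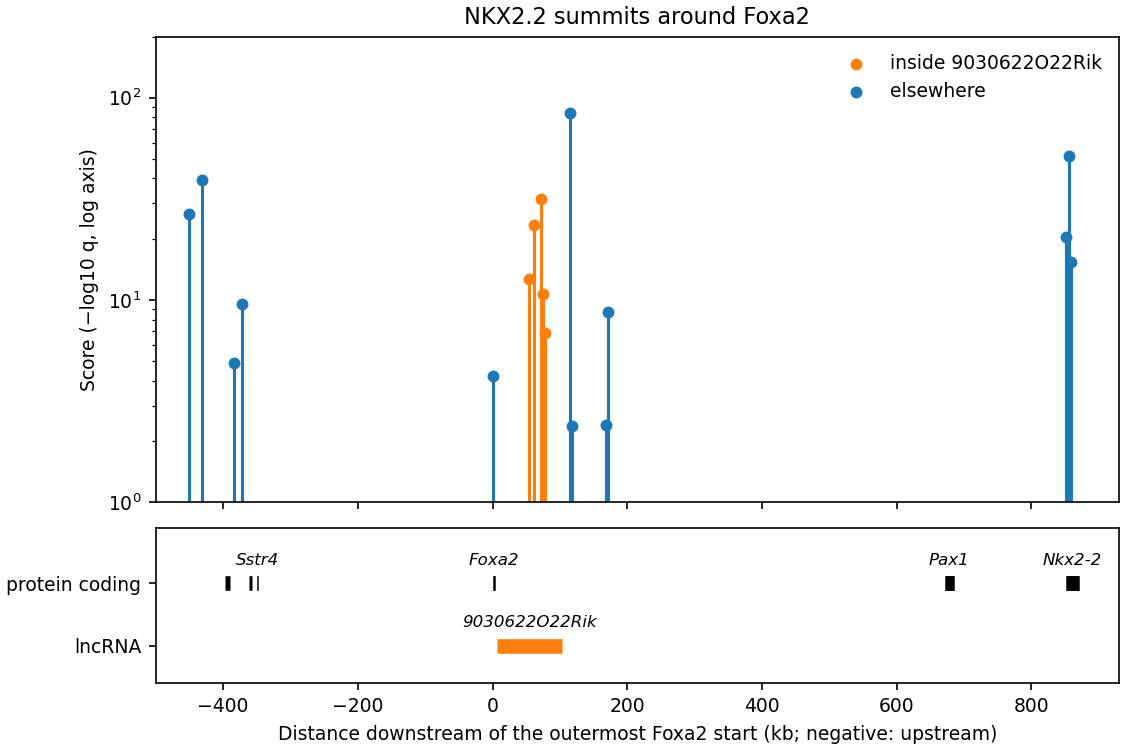
Scores of summits (log axis) against distance from the outermost Foxa2 start along its direction of transcription, in kb, with the annotated protein-coding genes (black; 5 are named with the lncRNA) and the lncRNA gene 9030622O22Rik (orange) below. The 5 orange summits lie inside the lncRNA gene, the highest point downstream of it is the summit of score 83.5, and no summit lies between the Foxa2 promoter and the group beyond Sstr4.

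Foxa1 (gene ID 15375; chromosome 12, 57540628 to 57548029, minus strand) had 1 summit, at position 57496652, 43.98 kb downstream of the gene. Its score of 64.6 was the highest of the 15 and ranked 636 of 7384. The summit lay between Foxa1 and Mipol1, 39.4 kb from Mipol1, so Foxa1 was the second nearest protein-coding gene. It stood alone, with the next summits 1168 kb away on the side of lower coordinates and 1515 kb away on the other. From the listed Foxa1 start the distance was 49.5 kb.

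Foxa3 (gene ID 15377; chromosome 7, 19013283 to 19023539, minus strand) had 5 summits within 100 kb, but lies in a gene-dense stretch with 11 other protein-coding genes in that window. At least 2 protein-coding genes lay between Foxa3 and each of the 5. The closest, at 18990670 and 22.6 kb downstream, scored 10.9 and was 0.570 kb from Mypop. A pair at 18949976 and 18951173 lay inside Nova2, which encodes a neuronal splicing regulator, with scores of 40.7 and 3.87. On the upstream side the summit at 19094057 scored 28.4. It lay between Dmpk, the myotonic dystrophy kinase gene, at 0.236 kb and Six5 at 0.487 kb. The summit at 19119833, with a score of 14.98, was 26 bases upstream of the start of Fbxo46. No summit was closer to Foxa3 than to another protein-coding gene. This cannot be set against Foxa2, where gene spacing alone makes Foxa2 the nearest gene of any summit within 100 kb.

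Hnf4a (gene ID 15378; chromosome 2, 163506811 to 163572907, plus strand) had no summit inside it, over 66.1 kb of gene and both of its listed start sites. The 2 summits within 100 kb lay upstream, at the promoters of other genes. At 163472689, 34.1 kb from Hnf4a, the summit scored 23.0 and was 60 bases upstream of the start of Fitm2, a gene of lipid droplet formation. At 163419629, 87.2 kb away, it scored 10.5 and was 159 bases upstream of the start of Oser1. Beyond the limit, at 163722732, a summit with a score of 64.1 lay inside Pkig, 149.8 kb from Hnf4a. The paralogue Hnf4g (gene ID 30942; chromosome 3, 3508030 to 3659800) had no summit for 3707 kb, where the next one, at Pkia, scored 4.20. Of protein-coding genes on chromosomes with summits, 1.10% (239 genes) were farther from their nearest summit than Hnf4g.

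Onecut1 (gene ID 15379; chromosome 9, 74861921 to 74889648, plus strand) had its nearest summit 347.5 kb downstream, inside Myo5c, with a score of 42.1, and 22.9% of protein-coding genes were farther from a summit. Gata4 (gene ID 14463; chromosome 14, 63198914 to 63271712) had 1 summit, at 63177985, 20.9 kb away and inside Fdft1, the squalene synthase gene, with a score of 5.50 and rank 6473. Gata6 (gene ID 14465; chromosome 18, 11052510 to 11085636) had none within 100 kb and has no other protein-coding gene in that window. Summits at 119.7 and 266.2 kb, with scores of 8.05 and 12.0, had Gata6 as their nearest protein-coding gene. The second nearest was Mib1, 386.7 kb from the first summit, and Rbbp8, 281.4 kb from the second. With genes this far apart, being nearest does not show which gene a summit acts on. Summit density differed between the chromosomes of these genes. Chromosome 14 had 0.610 summits per Mb and chromosome 9 had 1.79, against 2.19 to 3.94 on chromosomes 2, 3, 7, 12 and 18. The part of chromosome density in the counts of single genes was not tested.

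**Figure D3:**
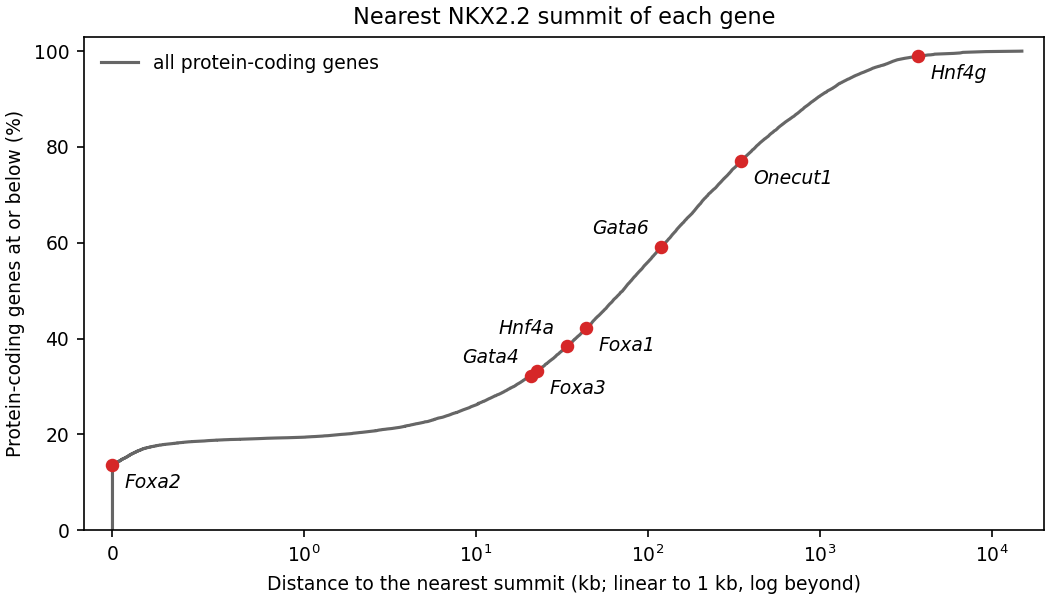
Share of protein-coding genes (%) whose nearest NKX2.2 summit lies at or below a given distance (kb, linear to 1 kb and logarithmic beyond), with the 8 genes as red points. Foxa2 stands at 0, Gata4, Foxa3, Hnf4a and Foxa1 between 20.9 and 43.98 kb, and Hnf4g at 3707 kb.

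Ordered by the distance to the nearest summit, the genes were Foxa2 (0 kb), Gata4 (20.9 kb), Foxa3 (22.6 kb), Hnf4a (34.1 kb), Foxa1 (43.98 kb), Gata6 (119.7 kb), Onecut1 (347.5 kb) and Hnf4g (3707 kb). Their median was 39.0 kb, against 71.5 kb over 21631 protein-coding genes. The list gives no error on these distances, so neighbours in the order, such as Gata4 and Foxa3, are not ranked by any test.

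**Figure D4:**
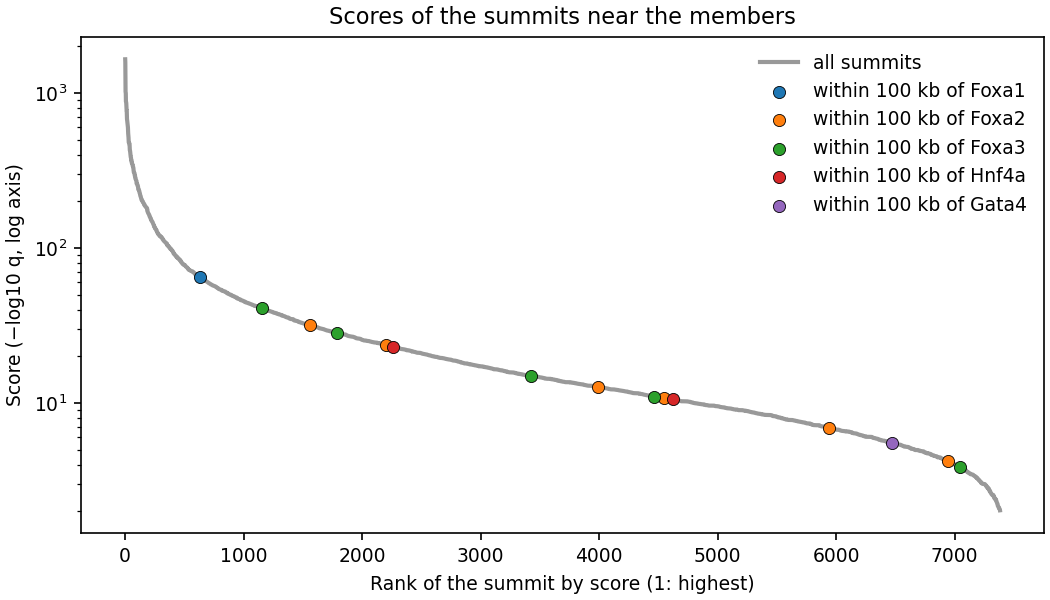
Score (−log10 q, log axis) of each of the 7384 summits against its rank (grey line), with the 15 summits in or within 100 kb of the genes as coloured points. The points spread from rank 636, at Foxa1, to rank 7047, at Foxa3.

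The 15 scores ran from 3.87 to 64.6 with a median of 12.7, against 13.7 for all summits, and 7 of the 15 were above the latter. By the highest summit per gene, the 5 genes with a summit had a median score of 31.7, against 24.3 over the 12108 protein-coding genes with a summit in the same window. The Foxa1 summit had 8.60% of the list above it. None of the 15 reached rank 100, but only 100 of the 7384 summits can, so this is no trait of these genes.

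Sequence was then read in the promoter windows of the genes and set beside all listed windows. RefSeq promoter windows were listed for 5 of the 8 genes, Foxa1, Foxa2, Foxa3, Hnf4a and Onecut1, with 8 windows in all. A summit lay in 1 of them, at Foxa2, or 12.5%, against 4.94% of all listed windows. AAGTG was present in 4 of the 7 windows without a summit, at Foxa1, Foxa3 and both starts of Hnf4a, beside 46.4% of all listed windows. These stretches are shown to set beside the Foxa2 promoter, each 5′ to 3′ on the strand of its gene, in GRCm38.p6, with AAGTG in capitals. They are chr12:57546201-57546285 (minus strand), chr7:19023540-19023609 (minus strand), chr2:163506707-163506791 and chr2:163546905-163546989 (plus strand).
Foxa1: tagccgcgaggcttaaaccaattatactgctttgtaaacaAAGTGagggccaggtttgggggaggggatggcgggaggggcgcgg
Foxa3: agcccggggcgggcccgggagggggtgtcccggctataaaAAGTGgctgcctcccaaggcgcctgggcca
Hnf4a, start at 163506857: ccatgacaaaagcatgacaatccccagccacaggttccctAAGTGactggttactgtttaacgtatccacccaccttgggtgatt
Hnf4a, start at 163547155: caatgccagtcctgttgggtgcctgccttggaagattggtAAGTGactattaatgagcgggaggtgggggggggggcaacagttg
The core lies 132 bases upstream of the Foxa1 start, 28 bases upstream of the Foxa3 start, and 108 and 208 bases upstream of the 2 Hnf4a starts, as counted to its middle base. The Foxa1 window also holds TNTTTAC, a core of FOXA sites, on the opposite strand. Family cores were in other windows of the genes too. The GATA core AGATAA was at the Hnf4a start at 163506857 and the Foxa2 start at 148045464. The HNF6 core ATCNAT was at the same Hnf4a start, at Foxa3 and at the Foxa2 start at 148046969. The windows of Onecut1 and of the other 2 Foxa2 starts hold no AAGTG.

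Another 3 promoters, of other genes, hold a summit within 100 kb of Foxa3 or Hnf4a. None of these 3 windows of 300 bases holds AAGTG on either strand. The stretches around the summits are shown for that reason, upstream of each start, with the summit at base 61 of each run: chr7:19119773-19119858 (plus strand), chr2:163472630-163472749 (minus strand) and chr2:163419569-163419689 (minus strand).
Fbxo46: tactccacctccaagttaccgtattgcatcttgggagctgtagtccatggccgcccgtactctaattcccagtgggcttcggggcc
Fitm2: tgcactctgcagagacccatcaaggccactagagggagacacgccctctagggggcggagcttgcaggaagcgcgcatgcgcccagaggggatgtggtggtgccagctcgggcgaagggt
Oser1: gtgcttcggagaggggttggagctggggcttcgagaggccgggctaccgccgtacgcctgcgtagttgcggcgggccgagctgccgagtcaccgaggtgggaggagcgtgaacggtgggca
The core was thus present at 1 of the 4 promoter summits near the genes, beside 45.1% of all summit windows. Cores of the members' own families were counted in the same windows, with no test of the difference. All listed windows include those with a summit. Base composition of the window sets is not given here, and its part in these shares was not tested. The FOXA core TNTTTAC was in 7.20% of the windows with a summit and in 12.4% of all windows. For GATA factors, AGATAA was in 4.06% and 11.2%, and for HNF6, ATCNAT was in 9.91% and 21.4%. The HNF4 half-site CAAAGTCCA, which shares the letters AAGT with the NKX2 core, was in 0.246% and 0.475%. All motifs were searched on both strands. The summits in 9030622O22Rik and at Foxa1 lie outside the listed windows, and their sequence was not analysed here.

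The wider families and the developmental partners of these genes were counted at the 10 kb distance, where 25.8% of all protein-coding genes had a summit. Of 27 relatives and cofactors, 11 (40.7%) had a summit. Foxp1, a forkhead gene with 3 summits, had the highest score, 426.3 at position 99276147 of chromosome 6, rank 40. Foxn3 followed with 111.7, then Rxra, the retinoid X receptor alpha gene, with 37.9, Cux1 with 30.95 and Onecut2 with 26.9, each with 2 summits. Within 100 kb Onecut2 had 2 summits, both inside the gene, and its paralogue Onecut1 had none. The third paralogue, Onecut3, had 4 within 100 kb, with a highest score of 105.4, and has 9 other protein-coding genes in that window. None of the 6 GATA genes had a summit within 10 kb. Within 100 kb 3 of the 6 had at least 1 (Gata1, Gata4 and Gata5), against 55.3% of all protein-coding genes. The highest score there was 233.8, for the summit 67.7 kb from Gata5, which has 4 other protein-coding genes in that window.

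Of 20 other foregut and progenitor factor genes, 10 (50%) had a summit within 10 kb. High scores belonged to Pdx1 (118.6), Tead1 (32.8), Meis1 (28.6) and Rbpj (28.5), the last of these the DNA-binding effector of Notch signalling. Tead1 was the only gene of this list with as many summits within 100 kb as Foxa2, 6. Tead1 is 227429 bases long and holds 4 of its summits inside, so a longer span was counted than at the short Foxa2 gene. Within 100 kb 16 of the 20 (80%) had a summit, against 55.3% of all protein-coding genes, and only Sox9, Sox17, Prox1 and Ptf1a had none. Of the 14 liver genes found by symbol among 15 listed, known targets of HNF and FOXA factors, 3 (21.4%) had a summit within 10 kb, Apoa2 (score 92.8), Pck1 (79.5) and Ttr (37.6). The lists overlap in part with genes already known to have summits in these data, and no difference between lists was tested.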

How the data were processed

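NKX2.2 ChIP-seq and input libraries of alphaTC6 cells, 2 samples each by title, are represented by 1 deposited list of peak summits. FastQC, Bowtie2, MACS2 and mm10 are named in the submitters' processing notes. The deposited values were taken as the −log10 q-values that the authors' MACS2 run gave each peak against input, since the lowest is 2.03, just past a q-value of 0.01, and MACS2 writes its summit files so. Versions, pooling of replicates and handling of duplicates are not given in the sources used here. The peak list limits what can be said: a gene without a summit had no peak called, at an unknown depth.

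Summit positions were written from 1 (start plus 1) and compared with RefSeq genes of GRCm38.p6, 21887 of them protein-coding on assembled chromosomes. Distance was 0 inside a gene and otherwise ran to its nearer end. Distances of 10, 50 and 100 kb were used. Promoter windows came from RefSeq (250 bases before to 50 after a start). A genome sequence was not used, so the motif search planned around every summit was restricted to summits in these windows. No test was run, as the list has no value per sample. Alternatives covered the score minimum, merging, distance from starts, assignment to the nearest gene, the background and the motif. The functions were tested on simulated data. The work ran in pandas 2.3.3 and numpy 2.4.6 under Python 3.11.15, with intervals from scipy 1.17.1 and plots from matplotlib 3.10.9.

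The 8 genes and the 3 gene lists were chosen with earlier results of these data known. Named were the 8 genes, the nearest protein-coding genes of their summits, and at most 5 genes per list by the highest score within 10 kb. Other names, such as the lncRNA genes, paralogues without a summit and genes flanking Foxa2, were added after their values were seen. Some genes of the lists are counted but not reported here by name.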

Additional observations from a re-analysis of the deposited data

How the results depend on the processing

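No paired analysis was possible because each peak has a score for the series and none for its samples, which also means that no sample could be left out. The count of genes with a summit within 10 kb rests on the weak Foxa2 promoter summit: it was 0 at a score minimum of 5, where 23.7% of protein-coding genes had one, and 0 at a minimum of 10, where 18.2% did. At a minimum of 10, 4 genes had a summit within 50 kb (33.7% of protein-coding genes), Gata4 dropped out, and the median score near the genes was 22.97, as the minimum removes low scores by construction. When each summit was given only to its nearest protein-coding gene, Foxa2 alone was counted, so that 1 gene had a summit within 50 kb and 1 within 100 kb, with 6 summits in all (21.0% and 21.7% of protein-coding genes had one). For Foxa2 this setting could change nothing, because no other protein-coding gene is near it. With TNAAGTG in place of AAGTG, 0 of the 4 promoter summits held the core, beside 9.05% of all promoter windows with a summit. Of 29 recomputed values over the genes 22 stayed within 1.5 times, and of 37 counts per gene 32 did. These tallies are no measure of robustness, as part of the values could hardly move. Hnf4g, Onecut1 and Gata6 had 0 summits, and no setting in the tally per gene could add one. Merging removed only 5 summits of the whole list. Distance from listed starts covered only 5 of the 8 genes, of which 4 had a summit within 50 kb (38.1% of protein-coding genes with a listed start). With all annotated genes as the background, the shares with a summit within 10, 50 and 100 kb were 16.7%, 33.9% and 46.2%. Windows of 150 kb, added after seeing the data, gave 21 summits at 6 genes, against 62.4% of protein-coding genes. Among the 1181 protein-coding genes with no other within 100 kb, a background also added after seeing the data, 16.0% had a summit within 10 kb and 1.19% had 6 or more within 100 kb.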
